A study of Mus musculus with 4 samples.

Results

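Genes for 10 enzymes that remove superoxide and peroxides were examined in liver RNA sequencing of ob/ob mice. They were chosen by symbol for what the enzymes do, and all 10 were found among the 24346 gene symbols listed for each library. They are the superoxide dismutases Sod1, Sod2 and Sod3, the catalase gene Cat, the glutathione peroxidases Gpx1, Gpx3 and Gpx4, and the peroxiredoxins Prdx1, Prdx3 and Prdx6.

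The mice were male ob/ob animals, which lack functional leptin, and they entered feeding at 6 weeks of age for 4 weeks. CD mice received a chow diet with 5% corn oil, WD mice received a western type diet with 20% cocoa butter and more sucrose, and CD+7KC and WD+7KC mice received the same diets with 0.01% 7-ketocholesterol (7KC), an oxidized cholesterol. Cholesterol made up 1% of every diet and all mice were ob/ob, so no group was leptin-sufficient or free of added cholesterol. Each group had 1 library, and the number of mice behind a library was not given in the sources used here. No difference between groups therefore has a replicate check, no p-value is given, and a difference between libraries cannot be told apart from a difference between mice. The design sets each diet with 7KC beside the same diet without it, and WD beside CD.

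Superoxide dismutases turn superoxide into hydrogen peroxide and oxygen. Hydrogen peroxide is then removed by catalase, which sits in peroxisomes, by glutathione peroxidases, which draw on glutathione, and by peroxiredoxins, most of which are recharged by thioredoxin. Hepatocytes are rich in these enzymes because their mitochondria, peroxisomes and oxidases release superoxide and peroxide in normal work. Gpx1, Gpx3 and Gpx4 are selenoproteins, with selenocysteine in the active site, and Gpx4 reduces lipid hydroperoxides within membranes. Sod3 and Gpx3 are secreted, while the other 8 enzymes act inside the cell.

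The deposited unit was FPKM, fragments counted for a gene relative to its transcript length and to the mapped fragments of its library, which allows levels of different genes to be compared per length. The FPKM values of a library summed to between 602059 in WD+7KC and 715605 in CD. Values of the 4 libraries are listed in the order CD, CD+7KC, WD and WD+7KC throughout, unless named otherwise. Steps between low FPKM values corresponded to about 10900000, 11000000, 9400000 and 12100000 mapped fragments. Reads behind each gene were estimated from these depths, and the 95% counting intervals given below rest on that estimate and cover counting error only. The sum was lowest in WD+7KC, and comparisons with that library are therefore given both as deposited and with each library divided by its own sum (TPM, called rescaled values). Over all genes, rescaling moved the median of WD+7KC over WD from 0.002 to 0.21 on the log2 scale. The hepatocyte markers were all detected, and albumin (Alb) was at 30014 to 35981 FPKM. The adult globin gene Hbb-bs was at 0.00604 and 0.00593 FPKM in the chow libraries and at 13.5 and 10.4 FPKM in the western diet libraries, and whether the mice of the diets differed in more than diet was not tested.

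Promoter sequences are shown for the 4 members whose highest library was at least 1.5 times the lowest in deposited FPKM, Cat, Gpx1, Gpx3 and Gpx4, because the differences described below turn on them. In rescaled values this ratio was 1.44 for Cat, 1.38 for Gpx1 and 1.67 for Sod3. Each is the 250 bases before a RefSeq transcription start on GRCm38.p6, printed 5′ to 3′ in the direction of the gene. For Gpx4, which has several RefSeq starts, the start nearest to that of its principal coding transcript in GENCODE was used, and for Gpx1 and Gpx3 the GENCODE annotation places an earlier start for the gene as well. Capitals mark matches, on either strand, to 5 short motifs. The TATA box was searched as TATAAA. The CCAAT box was searched under the letters of its name. The letters GGGCGG stood for the GC box. An antioxidant response element core was taken as TGACNNNGC. A nuclear receptor half-site was taken as AGGTCA. Neighbouring matches may share bases.
Cat, chr2:103485154-103485403, minus strand: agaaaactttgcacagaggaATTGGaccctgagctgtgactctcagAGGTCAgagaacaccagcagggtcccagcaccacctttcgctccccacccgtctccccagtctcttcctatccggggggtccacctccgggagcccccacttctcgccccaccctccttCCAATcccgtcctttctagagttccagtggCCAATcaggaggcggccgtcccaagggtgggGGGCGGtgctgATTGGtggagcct
Gpx1, chr9:108338830-108339079, plus strand: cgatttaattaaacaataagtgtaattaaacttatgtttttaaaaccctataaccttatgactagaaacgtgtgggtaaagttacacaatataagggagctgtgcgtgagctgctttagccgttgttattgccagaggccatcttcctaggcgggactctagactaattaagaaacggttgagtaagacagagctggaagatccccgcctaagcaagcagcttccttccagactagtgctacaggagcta
Gpx3, chr11:54902604-54902853, plus strand: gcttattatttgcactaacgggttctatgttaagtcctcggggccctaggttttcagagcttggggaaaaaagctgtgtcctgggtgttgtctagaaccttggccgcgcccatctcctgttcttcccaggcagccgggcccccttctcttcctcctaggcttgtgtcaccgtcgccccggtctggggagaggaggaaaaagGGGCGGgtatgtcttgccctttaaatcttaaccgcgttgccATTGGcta
Gpx4, chr10:80053315-80053564, plus strand: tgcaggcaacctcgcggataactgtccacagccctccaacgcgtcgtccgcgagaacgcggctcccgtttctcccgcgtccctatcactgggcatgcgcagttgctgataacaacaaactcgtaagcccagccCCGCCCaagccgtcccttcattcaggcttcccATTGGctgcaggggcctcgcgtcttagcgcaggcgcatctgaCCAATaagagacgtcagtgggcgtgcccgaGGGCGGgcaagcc
The Cat window held 4 CCAAT boxes, 1 GC box and 1 half-site, the Gpx3 window 1 CCAAT box and 1 GC box, and the Gpx4 window 2 CCAAT boxes and 2 GC boxes. The Gpx1 window held none of the 5 motifs and had a GC content of 42.0%, against 62% for Cat, 55.2% for Gpx3 and 63.2% for Gpx4. The RefSeq table gave a window for 8 of the 10 members, with no entry for Sod3 or Prdx6. The antioxidant response element core was found in 2 of these 8 windows, in Prdx1 and in Sod1. Over 32851 promoter windows of the same length, 12.4% held the TATA box, 33.8% the CCAAT box, 32.7% the GC box, 10.2% the antioxidant response element core and 14% the half-site. These matches describe the letters only.

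The 10 genes differed widely in level, and their order was nearly the same in the 4 libraries. Gpx1 (chromosome 9, 108338903 to 108340343, GRCm38) was the highest member in every library and the number 32 of all genes by mean FPKM. It was followed by Sod1 (chromosome 16, 90220754 to 90226329), number 43 of all genes. Cat, Prdx1 and Gpx4 came next, at 825 to 1524 FPKM, and then Prdx6, Prdx3, Sod2, Sod3 and Gpx3 in that order in every library. The only change of order was that Gpx4 stood below Cat and Prdx1 in CD and CD+7KC and above both in WD and WD+7KC. Together the 10 genes made up 1.17%, 1.24%, 1.14% and 1.07% of summed FPKM.

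**Figure D1:**
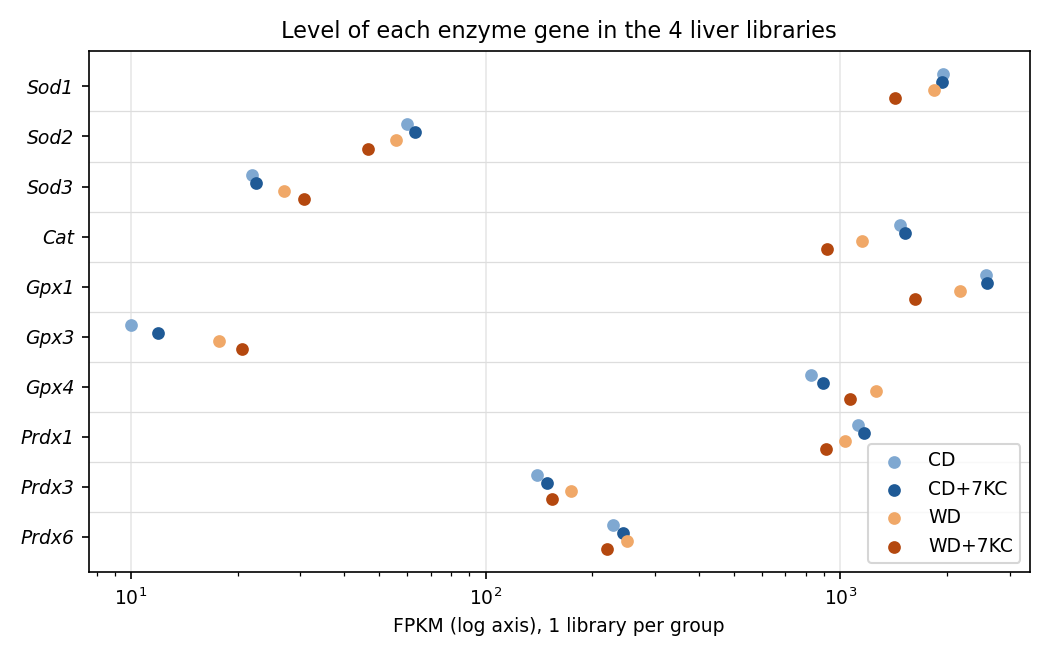
FPKM of each of the 10 enzyme genes on a log axis, with 1 point per library and 1 library per group. Gpx1 is highest and Gpx3 lowest in every library, and Gpx4 lies between 825 FPKM in CD and 1259 FPKM in WD.

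Among the superoxide dismutases, the intracellular enzymes were lowest in WD+7KC and the secreted enzyme was highest there. Sod1, the copper and zinc enzyme of the cytosol, was at 1952, 1930.1, 1833 and 1427 FPKM. Sod2 (chromosome 17, 13006846 to 13040063), the manganese enzyme of mitochondria, was at 60.2, 63.2, 55.8 and 46.6 FPKM. Their ratio was close in all libraries, at 32.4, 30.5, 32.8 and 30.6. Sod3 (chromosome 5, 52363791 to 52371418), which is secreted and bound to the matrix, was at 22.0, 22.5, 27.0 and 30.8 FPKM. Both western diet libraries lay above both chow libraries for Sod3. The ratio of Sod1 to Sod3 was 88.7, 85.7, 67.9 and 46.3, lowest in WD+7KC.

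Cat (chromosome 2, 103453849 to 103485160), the catalase of peroxisomes, was lower in both western diet libraries than in both chow libraries. It was at 1472, 1524, 1151 and 916 FPKM, with an estimated 26062 to 40358 reads per library. Abcd3, a transporter of the peroxisomal membrane, varied less, and the ratio of Cat to Abcd3 was 6.73, 6.78, 5.63 and 5.22. Pxmp2, also of that membrane, was at 125, 126, 75.9 and 59.6 FPKM. In WD over CD its log2 fold change was -0.71, and that of the membrane carrier Slc25a17 was -0.63, beside -0.36 for Cat. These were the 2 of 19 peroxisome genes lower by over 1.5-fold, against 10.8% of all genes, and 8 of the 19 were higher.

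The glutathione peroxidases differed in direction between the diets. Gpx1, which removes soluble peroxides, was at 2567, 2592, 2178 and 1621 FPKM. Gpx4 (chromosome 10, 80047166 to 80056439), which acts on lipid hydroperoxides, was at 825, 893, 1259 and 1064 FPKM. Gpx1 was lower and Gpx4 higher in both western diet libraries than in both chow libraries. Gpx3 (chromosome 11, 54902453 to 54910377), the secreted form, had the lowest level of the 10 and the widest range, with 10.03, 11.9, 17.7 and 20.6 FPKM. An estimated 153, 182, 232 and 347 reads stood behind these Gpx3 values, the fewest of any member.

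A ratio of genes within a library does not depend on how the library is scaled, and these ratios were examined after the levels had been seen. The ratio of Gpx4 to Gpx1 was 0.322 and 0.345 with the chow diets and 0.578 and 0.656 with the western diets. On the log2 scale it was higher by 0.85 in WD than in CD (95% counting interval 0.79 to 0.90) and by 0.93 in WD+7KC than in CD+7KC (0.88 to 0.98). The differences with 7KC were smaller, at 0.18 in WD+7KC over WD (0.13 to 0.23) and 0.10 in CD+7KC over CD (0.047 to 0.15). In contrast, the ratio of Cat to Gpx1 stayed between 0.528 and 0.588 in the 4 libraries, since both genes were lower in the western diet libraries. The ratio of Cat to Gpx4 was 1.78 and 1.71 with the chow diets and 0.914 and 0.861 with the western diets.

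The peroxiredoxins varied least in deposited FPKM. In rescaled values Prdx3, with a highest library 1.32 times its lowest, varied more than Sod1 (1.17) and Sod2 (1.17). Prdx1 (chromosome 4, 116685544 to 116700822), the main cytosolic form, was at 1122, 1170.2, 1029 and 912 FPKM. Prdx3 (chromosome 19, 60864051 to 60874556), the mitochondrial form, was at 139, 149, 174 and 154 FPKM. Prdx6 (chromosome 1, 161240112 to 161251219), which uses glutathione and also acts as a phospholipase, was at 228, 245, 251 and 220 FPKM, and its highest library was only 1.14 times its lowest. The ratio of Prdx1 to Prdx3 split by diet, with 8.05 in CD and 7.86 in CD+7KC against 5.92 in WD and 5.91 in WD+7KC. Prdx1 was lower and Prdx3 higher in WD than in CD.

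**Figure D2:**
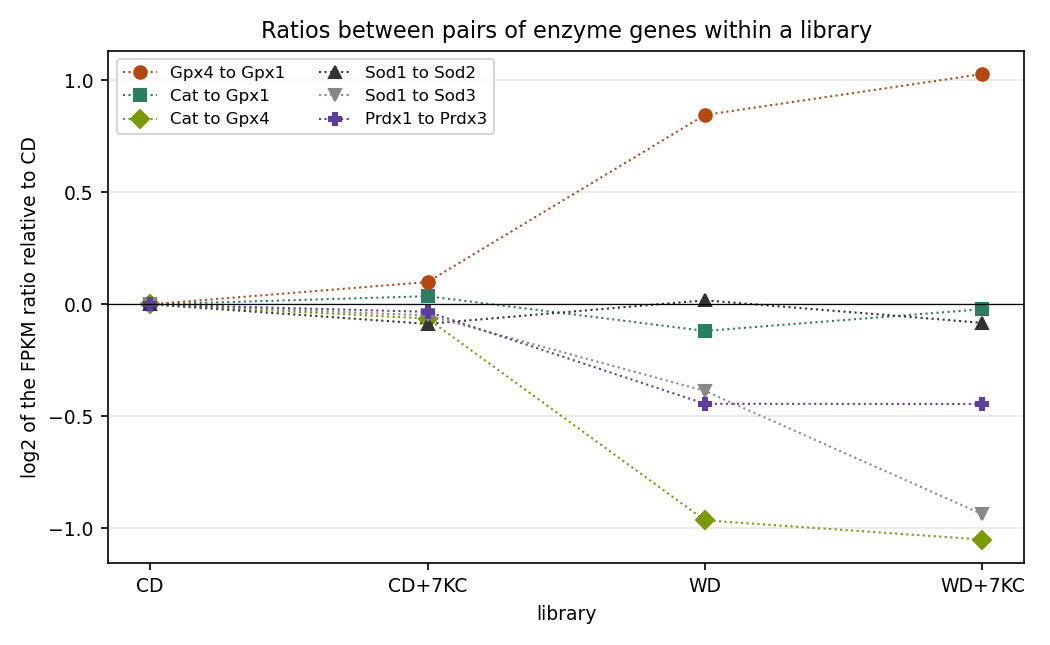
Log2 of the FPKM ratio of 6 pairs of enzyme genes in each library, set to 0 in CD; dotted lines only join points of a pair. The ratios Sod1 to Sod2 and Cat to Gpx1 stay near the CD value in all libraries, while Gpx4 to Gpx1 is higher and Cat to Gpx4, Sod1 to Sod3 and Prdx1 to Prdx3 are lower in both western diet libraries.

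Addition of 7KC to WD was accompanied by lower deposited values of 8 members and higher values of Sod3 and Gpx3, and the division into intracellular and secreted enzymes was made after these values had been seen. The log2 fold change in WD+7KC over WD was -0.43 for Gpx1 (95% counting interval -0.46 to -0.40), -0.36 for Sod1 (-0.41 to -0.32) and -0.33 for Cat (-0.35 to -0.30). It lay between -0.26 and -0.17 for Sod2, Gpx4, Prdx1, Prdx3 and Prdx6. Sod3 had 0.19 (0.067 to 0.31) and Gpx3 0.22 (-0.028 to 0.46), so that a difference in Gpx3 was not detectable at this depth with the deposited values. None of the 10 genes passed 1.5-fold, against 21% of all genes and 4.92% of genes averaging 10 FPKM or more, as all members do. The median of the 10 genes was -0.21, which was close to the median of -0.21 over the 875 genes averaging at least 100 FPKM, as 7 of the members do, and lay below the median of -0.12 over genes averaging at least 10 FPKM. Of genes averaging at least 10 FPKM, 72% were lower in WD+7KC, so that 8 of 10 lower members is near the share in genes of this level. At a threshold of 1.2-fold 3 members passed, against 29.9% of these genes.

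In rescaled values the 10 genes had a median of 0.002, with 5 genes higher and 5 lower. The rescaled median was 0.21 over all genes, 0.099 over genes averaging at least 10 FPKM and 0.007 over genes averaging at least 100 FPKM. Gpx1 had -0.21 (-0.24 to -0.18), Sod1 -0.14 (-0.19 to -0.099) and Cat -0.11 (-0.14 to -0.088), and their intervals stayed below 0. Sod3 had 0.41 (0.28 to 0.53) and Gpx3 0.43 (0.19 to 0.68), with intervals above 0. Sod2 and Gpx4 were at -0.044 and -0.027, and Prdx1, Prdx3 and Prdx6 changed sign to between 0.030 and 0.043. Thus the lower Gpx1, Sod1 and Cat and the higher Sod3 kept their direction under both scalings, and the sign of the peroxiredoxins did not.

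Addition of 7KC to CD was accompanied by small differences. The log2 fold change in CD+7KC over CD lay between -0.016 for Sod1 and 0.11 for Gpx4 in 9 of the 10 genes, and it was 0.25 for Gpx3 (95% counting interval -0.071 to 0.57). No member passed 1.5-fold, against 17.5% of all genes and 3.48% of genes averaging at least 10 FPKM. The median of the 10 genes was 0.066, and 9 were higher and 1 lower, where 53.7% of genes averaging at least 10 FPKM were lower. After rescaling all 10 were higher, with a median of 0.11, beside a median of 0.034 over all genes. The rescaled median was 0.025 over genes averaging at least 10 FPKM and 0.033 over those averaging at least 100 FPKM. The share of these genes that were higher after rescaling was not counted. The counting intervals of Sod2, Cat, Gpx4, Prdx1, Prdx3 and Prdx6 lay above 0 with the deposited values, and the largest of these differences, in Gpx4, was 8.18% of its CD level. No member passed 1.2-fold, against 17.4% of genes averaging at least 10 FPKM. With the deposited values 7 of the 10 genes were lower with 7KC under WD and higher with 7KC under CD, as were 32% of genes averaging at least 10 FPKM, and after rescaling 5 were, against 15.6%.

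**Figure D3:**
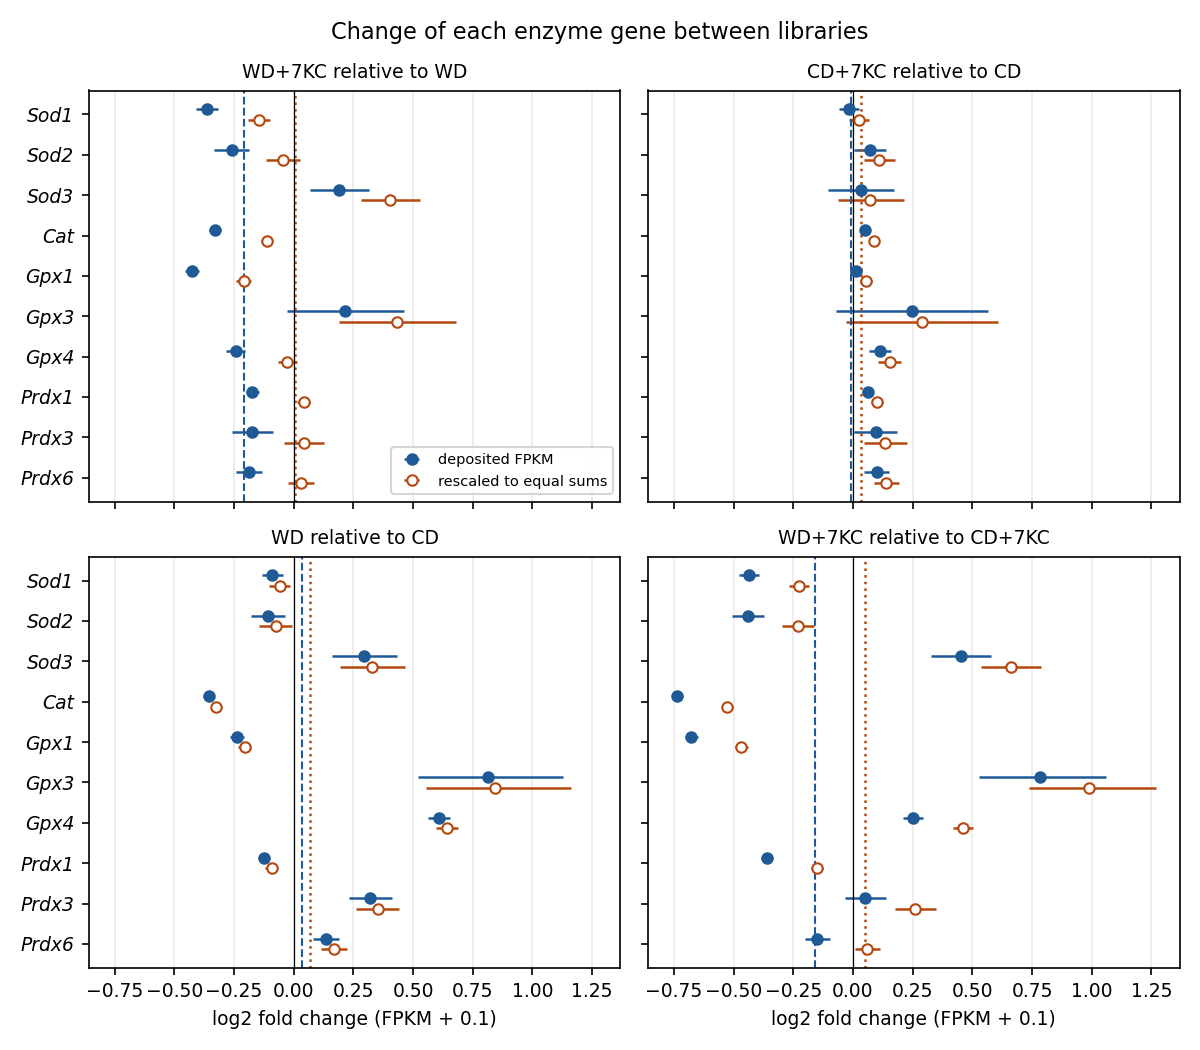
Log2 fold change of each enzyme gene in 4 comparisons, from deposited FPKM (filled points) and from rescaled values (open points), with 95% counting intervals as bars. Vertical lines mark the median of genes averaging at least 100 FPKM, dashed for deposited and dotted for rescaled values; in WD+7KC over WD the dashed line is at -0.21, among the values of the 8 lower members.

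The largest differences in WD over CD, in Gpx3 and Gpx4, were larger in log2 fold change than that of any member with 7KC under either diet. Gpx3 was 1.76 times and Gpx4 1.53 times as high in WD as in CD, log2 fold changes of 0.81 (95% counting interval 0.52 to 1.13) and 0.61 (0.56 to 0.65). These were the 2 members higher by over 1.5-fold, a change seen in 13.5% of all genes and in 5.33% of genes averaging at least 10 FPKM. No member was lower by over 1.5-fold, against 10.8% and 4.77%. Prdx3 had 0.32 (0.23 to 0.41), Sod3 0.30 (0.16 to 0.43) and Prdx6 0.14 (0.080 to 0.19). Cat had -0.36 (-0.38 to -0.33), Gpx1 -0.24 (-0.27 to -0.21), Prdx1 -0.12 (-0.15 to -0.097), Sod2 -0.11 (-0.18 to -0.038) and Sod1 -0.090 (-0.13 to -0.046). Thus 5 genes were higher and 5 lower, with 47.7% of genes averaging at least 10 FPKM lower. All 10 directions were the same after rescaling. At 1.2-fold 5 members passed, against 37.7% of these genes.

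With 7KC in both diets, WD+7KC over CD+7KC, 3 members passed 1.5-fold. Gpx3, at 0.78 on the log2 scale (95% counting interval 0.53 to 1.06), was higher by over 1.5-fold, with 17.5% of all genes and 6.24% of genes averaging at least 10 FPKM. Cat had -0.73 (-0.76 to -0.71) and Gpx1 -0.68 (-0.70 to -0.65), and were lower by over 1.5-fold, with 11.4% and 9.05%. After rescaling Cat and Gpx1 were at -0.53 and -0.47, inside 1.5-fold, while Gpx3 was at 0.99 and Sod3 at 0.66. Of the 10 genes, 6 were lower with the deposited values, with 59.4% of genes averaging at least 10 FPKM, and 5 after rescaling, where Prdx6 changed from -0.15 to 0.059. At 1.2-fold 7 members passed, against 44.9% of these genes. Each of the 4 libraries enters 2 of the 4 comparisons, which are therefore not independent of each other.

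Of the other genes of these families, Prdx2, Prdx4 and Prdx5 and the copper chaperone gene Ccs were well expressed. Prdx5, a peroxiredoxin of mitochondria and peroxisomes, was at 463, 414, 503 and 457 FPKM. Prdx2, a cytosolic peroxiredoxin, was at 188, 181, 212 and 187 FPKM, and Prdx4, a form of the endoplasmic reticulum, at 63.8, 69.3, 82.0 and 77.0 FPKM. Ccs, which loads copper into Sod1, was at 128, 131, 150 and 109.5 FPKM, the lowest log2 fold change in WD+7KC over WD among list genes averaging 1 FPKM or more, at -0.45. Gpx7, of the endoplasmic reticulum, had the highest by the same rule, at 0.29, with 2.88, 2.51, 3.46 and 4.23 FPKM. Gpx8 was at 3.48, 1.68, 1.43 and 1.22 FPKM, and Gpx6 at 1.03, 0.514, 0.200 and 0.0777 FPKM. Gpx2, the intestinal form, was under 0.3 FPKM in every library, and Gpx5 was listed at 0. Gpx2 and Gpx6, both averaging under 0.5 FPKM, had log2 fold changes of 0.79 and -0.75. They were the 2 genes of the list past 1.5-fold, against 21% of all genes. Of the 8 genes of this list above 0 FPKM in WD or WD+7KC, 2 had higher and 6 had lower values in WD+7KC (median -0.16), and 5 and 3 after rescaling. Before rescaling, 72% of genes averaging at least 10 FPKM were lower in WD+7KC than in WD.

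Selenium genes were examined because 3 members are selenoproteins. Sephs2, which makes the selenium donor for selenocysteine, was at 435, 413, 343 and 249.6 FPKM. It had the lowest log2 fold change of its list in WD+7KC over WD, at -0.46, and the ratio of Gpx1 to Sephs2 stayed between 5.90 and 6.50 in the 4 libraries. Gpx3 and Gpx4, the other selenoprotein members, were higher in both western diet libraries, where Sephs2 was lower. Sepp1, the gene of the plasma selenoprotein that carries selenium from the liver, was at 5266, 5204, 5700 and 4849 FPKM. It did not split by diet as Sephs2 did. Selenbp2 had the highest value of the list, at 0.50, with 9.63, 3.40, 5.24 and 7.44 FPKM, and it has a close paralog, Selenbp1, with which reads may be shared. Of 12 genes, 4 were higher and 8 lower in WD+7KC over WD (median -0.17), and none passed 1.5-fold, against 21% of all genes. In the background, 72% of genes averaging at least 10 FPKM were lower (median -0.12), and their rescaled median was 0.099. After rescaling 8 of the 12 were higher and 4 lower, and 2 were higher by over 1.5-fold, against 20% of all genes.

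Genes of the thioredoxin and glutathione systems, which recharge, make or regulate these carriers, gave a mixed picture. Of 17 genes, 8 were higher and 9 lower in WD+7KC over WD, with a median of -0.086 that became 0.13 after rescaling, when 14 were higher. In the background, 72% of genes averaging at least 10 FPKM were lower, with a median of -0.12 that became 0.099 after rescaling. Higher by over 1.5-fold were 1 of the 17 with the deposited values and 3 after rescaling, against 14.2% and 20% of all genes. Sesn2, a stress-inducible sestrin, had the highest value, with 2.50 FPKM in WD and 4.05 in WD+7KC (log2 fold change 0.68), and Txnrd2, the mitochondrial thioredoxin reductase, the lowest, with 22.3 and 15.7 FPKM (-0.50). Of 7 NADPH-producing genes, 3 were higher and 4 lower, against the same background of 72% lower, and 5 and 2 after rescaling. Of the 7, 1 was higher by over 1.5-fold with the deposited values and 2 after rescaling, against the same 14.2% and 20%. G6pdx, which opens the pentose phosphate pathway, was highest at 0.71, with 1.96, 2.06, 3.02 and 5.0 FPKM. Idh1, the cytosolic isocitrate dehydrogenase, was lowest at -0.31.

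The members were then set beside genes of the organelles in which they act. Of 19 peroxisome genes, 17 had lower values in WD+7KC than in WD (median -0.22), and this median became -0.005 after rescaling, with 10 lower. Cat lay below both, at -0.33 and -0.11. The list ranged from Pex2, a peroxisomal import factor, at -0.54 to Slc25a17, a peroxisomal membrane carrier, at 0.069. All 14 genes of mitochondrial content were lower, from Opa1, a fusion protein, at -0.33 to Cs, citrate synthase, at -0.018. Their median of -0.12 became 0.094 after rescaling, when 12 were higher. For both lists, the background was that 72% of genes averaging at least 10 FPKM were lower in WD+7KC than in WD. The median of those genes was -0.12, and 0.099 after rescaling. The mitochondrial members Sod2 and Prdx3 were at -0.26 and -0.17 in the deposited values. In WD over CD, 8 peroxisome genes were higher and 11 lower (median -0.067), beside -0.36 for Cat, and 6 mitochondrial genes were higher and 8 lower (median -0.021), beside -0.11 for Sod2 and 0.32 for Prdx3. In CD+7KC over CD the medians were 0.016 for the peroxisome list and 0.054 for the mitochondrial list, beside 0.050 for Cat, 0.071 for Sod2 and 0.095 for Prdx3.

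Genes of enzymes that produce superoxide or peroxide were split. Of 23 genes, 21 were above 0 FPKM in WD or WD+7KC, and 11 were higher and 10 lower in WD+7KC over WD, and 17 and 4 after rescaling. With the deposited values, the 5 genes higher by over 1.5-fold were Cyba, Cybb, Ncf1, Ncf4 and Rac2, subunits of the phagocyte NADPH oxidase, which makes superoxide in macrophages and neutrophils, and this subset was named after the values had been seen. Of all genes, 14.2% were higher by over 1.5-fold, and 72% of genes averaging at least 10 FPKM were lower by any amount. After rescaling 8 genes of the list were, with Xdh (0.66), Duox1 (0.64) and Ero1l (0.59) added, against 20% of all genes. Cyba had the highest log2 fold change, 1.29, with 12.0, 14.1, 15.9 and 38.9 FPKM. Cybb, the catalytic subunit, was at 3.31, 4.19, 5.66 and 12.6 FPKM. Ncf1, at 1.62, 1.26, 1.63 and 2.93 FPKM, and Ncf4, at 1.60, 0.870, 1.44 and 2.89 FPKM, were lowest in CD+7KC. Summed over the 5 genes, the level was 20.8, 23.3, 28.5 and 64.0 FPKM. Aox3, a hepatic aldehyde oxidase, was lowest at -0.82, with 117, 82.4, 58.6 and 33.2 FPKM.

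Markers of some other liver cells also differed between the libraries. The 11 macrophage and Kupffer cell markers summed to 185, 290.0, 313 and 609 FPKM, and 11 of 11 were higher in WD+7KC than in WD and 11 of 11 higher in CD+7KC than in CD. The 6 markers of sinusoidal endothelium summed to 55.0, 80.2, 43.5 and 123 FPKM, with 6 of 6 higher in WD+7KC than in WD and 5 of 6 lower in WD than in CD. Among genes averaging at least 10 FPKM, 72% were lower in WD+7KC than in WD and 53.7% in CD+7KC than in CD. In WD over CD 47.7% of these genes were lower. The 8 hepatocyte markers summed to 51833, 43959.5, 53589 and 42409 FPKM. The macrophage sum had the same order over the libraries as Sod3, Gpx3 and the sum of the 5 oxidase subunits, lowest in CD and highest in WD+7KC. Not every macrophage marker followed this order. Adgre1, Clec4f, Vsig4, Timd4 and Cd163 were higher in CD+7KC than in WD, and the other macrophage markers were lower. The endothelial sum was lowest in WD. The part of these cells in the Sod3 and Gpx3 values was not tested. In bulk tissue, more cells of a type and more RNA per cell cannot be told apart. The fat tissue markers Plin1 and Lep were listed at 0 in every library. Adipoq was at 0.0885 and 0.0882 FPKM in CD and CD+7KC and at 0 in WD and WD+7KC. Cidec, the other gene of that list, which fat-laden hepatocytes also express, was at 148, 115, 202 and 171 FPKM. Gpx3, a gene that fat also expresses, was higher in both western diet libraries, as was Cidec. Adipoq, under 0.1 FPKM in every library, was too near the floor to show a pattern by diet. The part of fat tissue in the Gpx3 values was not tested.

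**Figure D4:**
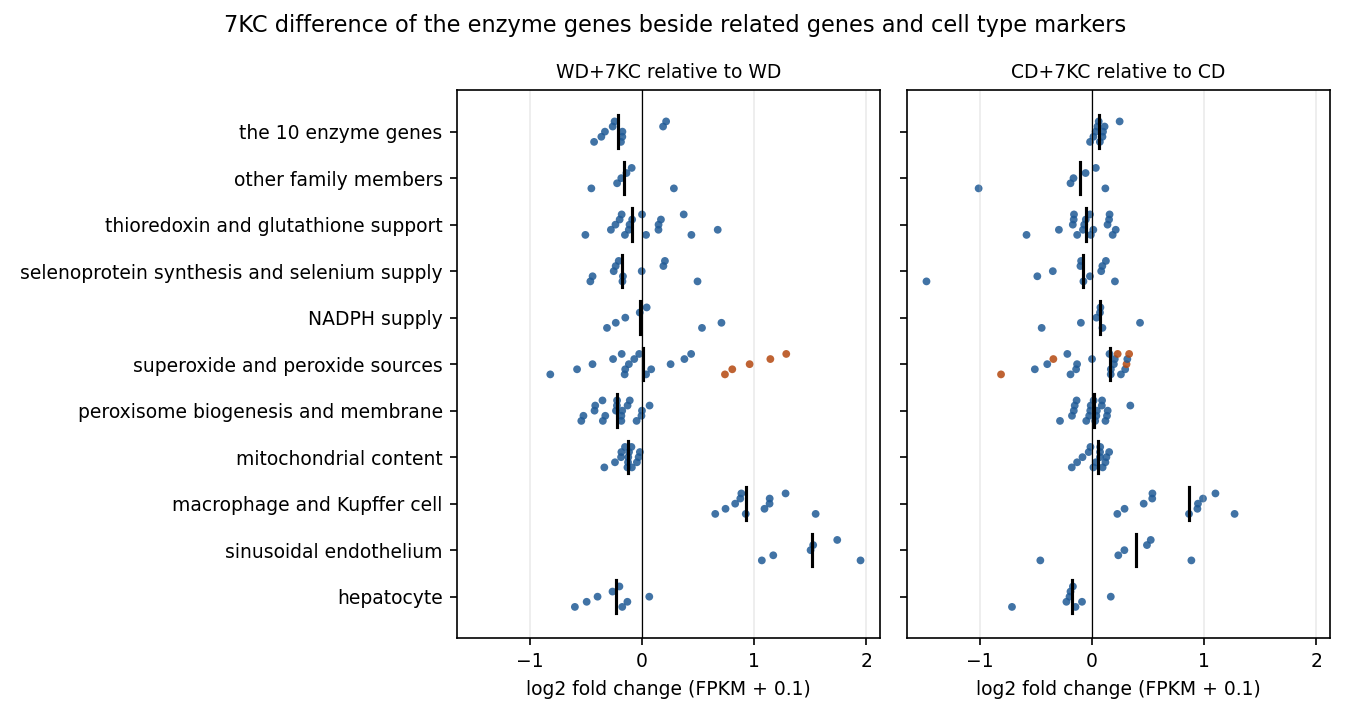
Log2 fold change with 7KC under WD (left) and CD (right), deposited values, for the 10 enzyme genes, 7 lists of related genes and 3 lists of cell type markers, 1 point per gene averaging 1 FPKM or more and a bar at the median. Orange points are 5 phagocyte NADPH oxidase subunits; in WD+7KC over WD all 5 lie above the 10 enzyme genes, among the macrophage markers.

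For the members that varied by at least 1.5 times, the genes of most similar profile over the 4 libraries were sought among 4661 other genes averaging at least 10 FPKM, by the distance between centred log2 values. They were Lypla1 and Gstz1 for Cat (distances 0.018 and 0.029), Serpina1b and Mgmt for Gpx1 (0.039 and 0.043), Shisa5 and Crip2 for Gpx3 (0.095 and 0.096) and Rabac1 and Ppif for Gpx4 (0.043 and 0.050). Gstz1 was at 584, 611, 469 and 368 FPKM. With 4 points per gene, and 4661 genes compared, such likeness is a description only.

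Some members have near-identical copies. Gpx4 matched the pseudogene Gpx4-ps2 at 99.7% identity over 733 of 995 bases of its mRNA, Sod1 matched Gm8566 at 97.8% over 465 of 641 bases, and Prdx1 matched Gm21399 and Gm7204 at 98.3% and 97.5% over 597 of 2294 bases. These copies have no row of their own in the tables, and how the authors' counting divided such reads was not given in the sources used here, so the levels of these 3 genes are uncertain to that extent. Parts of the long Sod2 mRNA of under 200 bases also matched 7 other genes at 95% identity or more.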

How the data were processed

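The authors prepared stranded mRNA libraries from total liver RNA, sequenced single-end reads of 75 bases, mapped them to mm10 (GRCm38) with TopHat2 2.0.13, Bowtie2 2.2.3 and SAMtools 0.1.19, and deposited FPKM values by gene symbol, made with Cufflinks 2.2.1. The gene annotation, Cufflinks options and any scaling between libraries were not given in the sources used here. Sepp1 and Ero1l are older symbols kept as listed.

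Log2 fold changes were computed as log2 ratios of FPKM + 0.1 for genes above 0 FPKM in either library. A member past 1.5-fold was counted, beside the same share over all genes. With 1 library per group no test was run. Depth was estimated from steps of low FPKM values over 14081 genes with a single RefSeq mRNA, using mRNA length minus 200 bases. Between 71.9% and 75.4% of low values came within 0.1 of whole reads. Reads per member used the longest RefSeq mRNA, and intervals are exact (Clopper-Pearson) binomial for single genes and normal on the log scale for ratios. Near-identical copies were sought by blastn in GENCODE vM21 transcripts, and promoter windows came from RefSeq (GRCm38.p6).

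The members, the 7 lists of related genes and the 9 marker lists were chosen with earlier results of these data known. Some genes of these lists are not reported here and were left out of the counts. Named genes were the members, the highest and lowest gene of each list in WD+7KC over WD averaging at least 1 FPKM, all other family genes, and the 2 most similar profiles per member that varied by at least 1.5 times. Abcd3, Pxmp2, Sepp1, the oxidase subunits, Xdh, Duox1, Ero1l and single marker genes were named after their values were seen. The alternatives were other pseudocounts, filters, thresholds and 4 scalings. The code was tested on simulated data. Python 3.11.15, numpy 2.4.6, pandas 2.3.3, scipy 1.17.1 and matplotlib 3.10.9 were used.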

Additional observations from a re-analysis of the deposited data

Results flagged for a closer look

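For 6 members the difference with 7KC had opposite signs under the diets with the deposited values, and both counting intervals left out 0. Under CD the intervals of Sod2 and Prdx3 did so narrowly, with lower bounds of 0.006 and 0.005. Without regard to intervals 7 members were lower under WD and higher under CD, as were 32% of genes averaging at least 10 FPKM. The log2 fold change with 7KC under WD minus that under CD was -0.38 for Cat, -0.36 for Gpx4, -0.33 for Sod2, -0.29 for Prdx6, -0.27 for Prdx3 and -0.24 for Prdx1. With 1 library per group this difference between the diets was not tested. After rescaling to equal sums the differences were -0.20, -0.18, -0.15, -0.11, -0.091 and -0.059 in the same order. Prdx1, Prdx3 and Prdx6 were then higher with 7KC under both diets. The rescaled intervals under WD included 0 for Sod2 (-0.12 to 0.028) and Gpx4 (-0.067 to 0.014). Of the 6, only Cat still had opposite signs with both intervals leaving out 0, and Gpx1 had them after rescaling only. With the deposited values the difference between the diets was -0.44 for Gpx1 and -0.35 for Sod1, whose intervals under CD included 0. Over genes averaging at least 100 FPKM, the deposited median with 7KC was -0.21 under WD and -0.007 under CD.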

How the results depend on the processing

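Library scaling moved the medians, and the fold threshold the counts. The median log2 fold change of the 10 genes in WD+7KC over WD was -0.215 as deposited and 0.002 after rescaling to equal sums. It was -0.108 with upper-quartile scaling, -0.176 with median-ratio scaling and -0.040 without the 20 genes of highest mean FPKM in the sums. With upper-quartile and with median-ratio scaling 8 members were lower, as with the deposited values. In WD+7KC over CD+7KC the median was -0.255 as deposited, -0.046 after rescaling to equal sums and -0.060 without the 20 genes. It was -0.207 with upper-quartile and -0.22 with median-ratio scaling. Single genes that changed sign where the deposited interval had left out 0 were Prdx1 (0.0424), Prdx3 (0.0431) and Prdx6 (0.0302) in WD+7KC over WD after rescaling to equal sums, Prdx1 (0.0004) and Prdx3 (0.0012) without the 20 genes, and Prdx6 in WD+7KC over CD+7KC (0.059 and 0.0444). Of 160 member values under the 4 scalings, these 7 changed sign in this way, 60 moved by more than the interval's reach on either side and 93 by less. Among the last, Sod1 in CD+7KC over CD, at -0.016, was at 0.024 after rescaling to equal sums, 0.0228 with upper-quartile and 0.001 with median-ratio scaling. At a threshold of 1.2-fold, 3 members passed in WD+7KC over WD, 5 in WD over CD and 7 in WD+7KC over CD+7KC, against 29.9%, 37.7% and 44.9% of genes averaging at least 10 FPKM; at 2-fold, 0 passed in the latter pair. Other pseudocounts and filters moved every median by less than the typical counting error of a member and left every count within 1.5 times. No paired analysis was possible because each group has 1 library. The depth limits Gpx3 most, with 153 to 347 estimated reads.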

Other observations

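The marker lists not described above gave these values. The 6 stellate cell and fibroblast markers summed to 159.7, 132, 168 and 162 FPKM in the order CD, CD+7KC, WD and WD+7KC. The 4 cholangiocyte markers summed to 2.42 to 3.78 FPKM, the 3 T cell markers to 0.248 to 2.55 FPKM and the 2 listed neutrophil markers to 12.7 to 20.2 FPKM. The 4 fat tissue markers summed to 115 to 202 FPKM, nearly all of it from Cidec, which fat-laden hepatocytes also express. Of the 3 erythroid markers, Hba-a1 was at 89.8, 54.5, 146 and 70.0 FPKM, and Hbb-bs at 0.00604, 0.00593, 13.5 and 10.4 FPKM. Alas2, the third, was at 86.5, 81.3, 30.9 and 23.3 FPKM, lower in both western diet libraries. How reads were divided among the globin genes was not given in the sources used here, and diet and the mice behind the libraries cannot be told apart.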
